A study of Mus musculus with 20 samples.

Results

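The clustered protocadherin genes of the mouse are the 58 genes of 35896 with a transcript in the tables whose symbols place them in the alpha, beta or gamma cluster. All 58 lie on the plus strand of chromosome 18 in GRCm38 (GENCODE M21 annotation). The alpha cluster runs from position 36930184 to 37187661 with 14 genes, the beta cluster from 37264938 to 37524479 with 22 genes, and the gamma cluster from 37661793 to 37841873 with 22 genes. Pcdhgb8 is annotated as a polymorphic pseudogene without a protein-coding transcript. The symbol Pcdha11 belongs to 2 annotated genes, ENSMUSG00000007440.10 and ENSMUSG00000102206.5, which were kept apart, so that the 58 genes carry 57 symbols. Their RNA was measured in TKO and WT cells of ES-E14TG2a, a mouse embryonic stem cell line also called E14. TKO D0 and WT D0 were stem cells grown in serum with LIF on gelatin, and TKO and WT cells of D2, D4, D6 and D8 had been in neural progenitor differentiation (N2B27 medium on laminin) for that many days. Both genotypes share the line, the media and the protocol. The labels give TKO without the genes it stands for and without saying whether it is 1 clone. Each of the 10 groups had 2 libraries labelled as biological replicates, 20 in all, and where these did not come from separate cultures the p-values measure technical spread only.

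Clustered protocadherins are cell adhesion proteins of the nervous system that bind copies of themselves on neighbouring membranes, and individual neurons carry different combinations of them, which lets a neuron tell its own branches from those of others. In the alpha and gamma clusters each gene has its own promoter and its own large first exon, which is spliced to a short set of exons at the end of the cluster that all genes of that cluster share. Beta genes consist of a single large exon and share no such end. The alternate genes of each cluster are known to be switched on in a stochastic way from promoters that bind CTCF and cohesin and that are held silent by DNA methylation, while the C-type genes at the ends of the alpha and gamma clusters (Pcdhac1, Pcdhac2, Pcdhgc3, Pcdhgc4 and Pcdhgc5) are expressed more evenly among neurons.

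The members held 0.00808% to 0.0926% of the estimated counts of a library, and libraries held 26015282 to 38074768 counts. Levels are given as CPM, counts per 1e+06 after scaling between libraries, for 1 gene or sum across libraries, and as TPM, which takes transcript length into account, between genes. Of the 58 members 57 passed the filter on low counts, and Pcdhb1 did not, with at most 6 counts in a library. A member was called higher or lower where the edgeR quasi-likelihood test over 18545 genes gave an adjusted p under 0.05. Of the 31-base words of a gene, 45.5% to 90.7% in the alpha cluster and 27.3% to 67.5% in the gamma cluster also occur in another gene, against 0% to 22.5% in the beta cluster. The share found in members of the same cluster was 44.9% to 70.2% for alpha genes and 27.3% to 67.5% for gamma genes. Up to 41.1% of an alpha gene occurs in genes that are not members, wherever these lie. The non-member that shares the most words with the 58 genes, Gm42416, had at most 14 counts in a library. The division of reads among the genes of the alpha or gamma cluster is therefore an estimate, and sums over a cluster are given beside single genes. The libraries of WT D0 stood furthest apart of the 10 groups, where chi-square over degrees of freedom was 27.19 for the replicate pair and 2.88 to 10.6 for the other pairs. These are bulk libraries, in which fewer cells of a type and less RNA per cell cannot be told apart.

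The summed level of the 58 members climbed with differentiation in WT and peaked at D6 in TKO. From D0 to D8 the sums averaged 136 ± 0.293, 144 ± 1.45, 334 ± 5.67, 509 ± 12.4 and 382 ± 13.2 CPM in TKO and 102 ± 5.38, 92.6 ± 5.02, 287 ± 5.68, 513 ± 37.8 and 814 ± 0.191 CPM in WT (mean ± SD, n = 2 per group). In WT, 50 of the 58 members had their highest group mean at D8. In TKO, 16 members did so and 33 had theirs at D6. The number of members with at least 0.5 CPM was 23 and 24 at D0, 37 and 37 at D4, 55 and 55 at D6 and 56 and 56 at D8 in the TKO libraries, against 23 and 24, 39 and 40, 51 and 49, and 57 and 56 in the WT libraries of the same days.

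**Figure D1:**
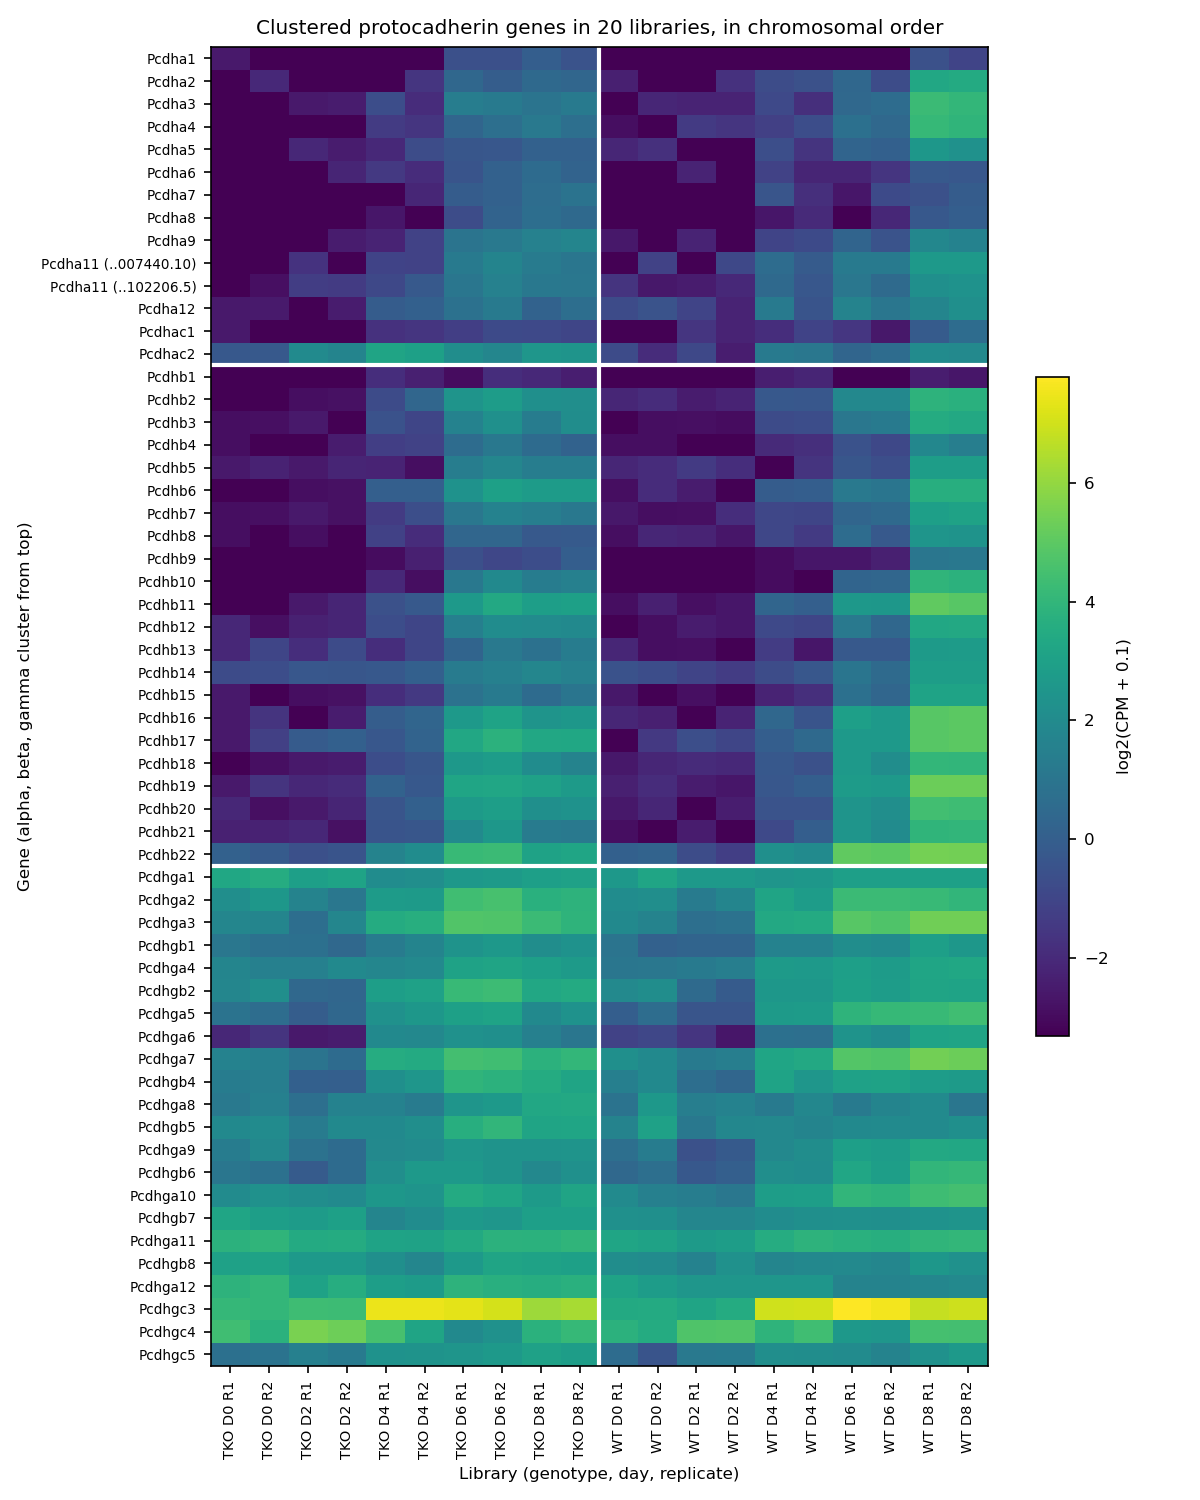
Level of each of the 58 genes (rows, in chromosomal order, white lines between the alpha, beta and gamma clusters) in each of the 20 libraries (columns, TKO left and WT right, by day and replicate), as log2(CPM + 0.1). Most alpha and beta rows are dark at D0 and D2 in both genotypes, with Pcdhac2 in TKO at D2 among the exceptions, and most are brightest in the 2 WT D8 libraries, while most gamma rows hold a signal at every day.

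The clusters entered this course at different times. In stem cells the gamma cluster held 97.3% of the summed member CPM in TKO and 95.7% in WT. All 7 gamma B genes and 11 of the 12 gamma A genes had at least 0.5 CPM in every D0 library, the exception being Pcdhga6. The 12 alternate alpha genes together stayed under 1.5 CPM in each D0 and D2 library of both genotypes. The 22 beta genes together stayed under 4 CPM in them. The beta share of the members grew to 22.3% in TKO and 41.8% in WT at D8, and the gamma share then was 71.0% in TKO and 48.9% in WT.

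In each genotype 51 of 57 members were called higher at D8 than at D0, where 34.2% of all genes tested were higher in TKO and 37.8% in WT. All 14 alpha genes and all 21 beta genes tested were among the 51 in each genotype, with 16 of the 22 gamma genes. The median member had a log2 fold change of 4.07 in TKO and 5.43 in WT, while the median over all genes tested was 0.05 and 0.00. The single member called lower was Pcdhga1 in TKO (log2 fold change -0.44 with SE 0.15 and adjusted p = 0.0162) and Pcdhga12 in WT (log2 fold change -1.15 with SE 0.16 and adjusted p = 3.84e-06), where 30.8% and 39% of all genes tested were lower. The call of Pcdhga1 ended at an adjusted p under 0.01, without TKO D0 replicate 2 and without TKO D8 replicate 1. Summed beta CPM was 31.6-fold higher at D8 than at D0 in TKO and 117-fold higher in WT. Summed gamma CPM was 2.04-fold higher in TKO and 4.07-fold higher in WT.

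**Figure D2:**
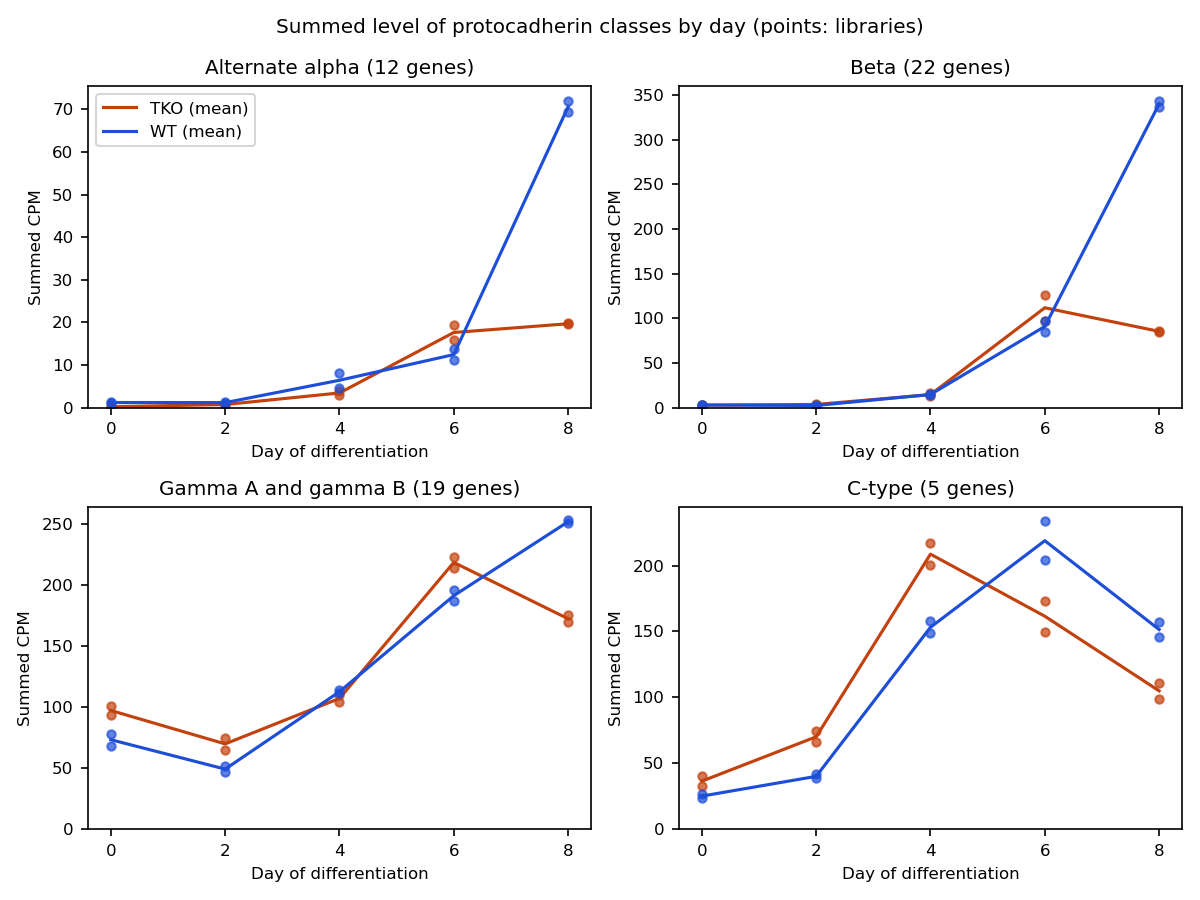
Summed CPM of 4 classes of clustered protocadherin genes (panels) by day of differentiation, with points for libraries and lines for group means, TKO in orange and WT in blue. On this CPM axis the alternate alpha and beta sums of both genotypes lie nearer to each other until D6 than at D8. At D8 the TKO libraries stay near 20 and 85 CPM and the WT libraries reach about 70 and 340 CPM. As a ratio the alternate alpha sums differ more at D0, with 0.198 CPM in TKO and 1.19 CPM in WT (6.03-fold), than at D8 (3.59-fold).

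In stem cells most of the members called were gamma genes. A D0 library had 0 or 1 of 12 alternate alpha genes and 1 or 2 of 22 beta genes at 0.5 CPM or more. It had 11 of 12 gamma A genes and 7 of 7 gamma B genes at that level. Differences of most alpha and beta genes could therefore not be resolved. At D0 the test called 9 members higher and 5 lower in TKO, of 19.4% and 19.9% of all genes tested, so that the share of members called (15.8% and 8.77%) was below that of all genes. Of the 9 higher members 8 were gamma genes, and 4 of these stand side by side at the end of the alternate part of the cluster (Pcdhgb7, Pcdhga11, Pcdhgb8 and Pcdhga12). The stretch was picked after the values were seen, with no test of position. The summed gamma level was 133 and 133 CPM in TKO libraries, against 94.5 and 101 CPM in WT libraries.

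Pcdhga12, the last alternate gene before the C-type genes, had 14.5 and 16.3 CPM in TKO libraries of D0, against 8.58 and 7.05 CPM in WT libraries. The lower TKO library lay above the higher WT library (log2 fold change 0.97 with SE 0.15 and adjusted p = 4.6e-05). Pcdhgb8 had 8.15 and 8.38 CPM in TKO libraries of D0, against 4.21 and 3.96 CPM in WT libraries, also without overlap (log2 fold change 1.02 with SE 0.20 and adjusted p = 0.000652). Pcdhgb7 had 9.13 and 7.51 CPM in TKO libraries of D0, against 4.75 and 4.48 CPM in WT libraries, with the TKO pair above the WT pair (log2 fold change 0.85 with SE 0.14 and adjusted p = 0.000126). Pcdhga11 was higher in TKO by 0.75 on the log2 scale, and Pcdhga1, Pcdhga4 and Pcdhga9 by 0.49 to 0.60. The call of Pcdhga4 was lost in 2 of the 20 fits that each left out 1 library (adjusted p up to 0.132, without TKO D0 replicate 1), and that of Pcdhga9 in 6 (up to 0.419, without TKO D0 replicate 2).

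The 5 members called lower in TKO at D0 were Pcdha5, Pcdha12, Pcdhb2, Pcdhb6 and Pcdhga7. Only Pcdhga7 had more than 1 CPM, with 2.93 and 2.71 CPM in TKO libraries of D0, against 4.50 and 3.83 CPM in WT libraries (log2 fold change -0.56 with SE 0.15 and adjusted p = 0.00722), and its call ended when WT D0 replicate 1 was left out, or TKO D0 replicate 2 (adjusted p up to 0.0672). Pcdha12 had 0.0697 and 0.0732 CPM in TKO libraries of D0, against 0.478 and 0.617 CPM in WT libraries (log2 fold change -2.87 with SE 0.89 and adjusted p = 0.0163), and its call was lost without WT D0 replicate 2, TKO D0 replicate 1 or TKO D0 replicate 2. Pcdha5, Pcdhb2 and Pcdhb6 had no count in either TKO library and 1 to 6 counts in each WT library, which makes them at least 3.01-fold, 2.70-fold and 1.80-fold lower when the TKO pair is set to 3 counts in all. The number of members called lower at D0 was between 1, without TKO D0 replicate 2, and 8, without WT D0 replicate 1, and it was 3 without WT D0 replicate 2 and 2 without TKO D0 replicate 1.

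At D2 the same stretch of the gamma cluster stood higher in TKO. The test called 11 members higher (19.3%) and 3 lower (5.26%), against 18.4% and 16.9% of all genes tested. The share of members called higher was thus near that of all genes, and the share called lower was below it. Among the 11 were Pcdhga9, Pcdhga10, Pcdhgb7, Pcdhga11, Pcdhgb8 and Pcdhga12, with log2 fold changes of 0.67 to 1.17. From Pcdhga10 on these follow one another on the chromosome, while Pcdhgb6, between Pcdhga9 and Pcdhga10, was not called. This view by position was chosen after the values were seen and has no test of its own. Pcdhgb7 had 6.82 and 7.78 CPM in TKO libraries of D2, against 3.37 and 3.32 CPM in WT libraries, and Pcdhga12 had 8.37 and 12.03 CPM in TKO libraries of D2, against 5.69 and 5.62 CPM in WT libraries. In both genes the TKO libraries lay above the WT libraries. Leaving out 1 library ended the call of Pcdhga9 (adjusted p = 0.0582 without TKO D2 replicate 1), of Pcdhga10 (0.0563 without WT D2 replicate 2) and of Pcdhgb8 (up to 0.230, without WT D2 replicate 1). The count of 11 was 7 without WT D2 replicate 2 and 7 without TKO D2 replicate 2.

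The 3 members called lower at D2 were Pcdha4, Pcdhac1 and Pcdhga7. Pcdha4 and Pcdhac1 had no count in either TKO library and 4 to 8 counts in each WT library, at least 4.50-fold and 2.998-fold lower on the same floor. The call of Pcdhac1 ended without WT D2 replicate 1, TKO D2 replicate 1 or TKO D2 replicate 2 (adjusted p up to 0.0965). Pcdhga7 had 1.85 and 1.36 CPM in TKO libraries of D2, against 2.32 and 2.56 CPM in WT libraries, and its call was lost without WT D2 replicate 2 or TKO D2 replicate 2 (adjusted p up to 0.177) and with counts from length-scaled TPM. Without TKO D2 replicate 2 a single member was called lower. Pcdhb14, called higher in TKO at D2 with 0.720 and 0.682 CPM in TKO libraries of D2, against 0.387 and 0.291 CPM in WT libraries, lost its call without WT D2 replicate 2, TKO D2 replicate 1 or TKO D2 replicate 2 (adjusted p up to 0.193).

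Cell type markers differed at these days too. Markers of endoderm, 8 genes, summed to 288 to 319.8 CPM in TKO libraries and 18.7 to 26.1 CPM in WT libraries at D0, and all 8 were higher in TKO at both D0 and D2. Markers of pluripotent cells, 6 genes, summed to 4950.2 to 5073 CPM in TKO and 5448 to 5569 CPM in WT at D0. None of the 8 endoderm markers was at 0 in both TKO libraries at D0, and 2 were at 0 in both WT libraries. The 12 neuron markers, 10 of which were higher in TKO at D2, summed to 498 to 541 CPM in TKO and 318 to 328 CPM in WT at D2. The part of these cells in the protocadherin values was not tested.

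Pcdhac2, the last gene of the alpha cluster, which mouse serotonergic neurons need to spread their axons, passed as higher in TKO at 4 of the 5 days. Its levels in TKO were 0.732 and 0.769 CPM at D0, 3.84 and 3.09 CPM at D2, 9.01 and 7.86 CPM at D4, 4.26 and 3.34 CPM at D6 and 5.63 and 5.24 CPM at D8. The WT levels of the same days were 0.478 and 0.162, 0.426 and 0.0874, 2.25 and 1.99, 1.15 and 1.42 and 4.01 and 3.69 CPM. At each of the 5 days both TKO libraries lay above both WT libraries, with the highest TKO level at D4 and the highest WT level at D8. The difference passed at D2 (log2 fold change 3.86 with SE 0.39 and adjusted p = 7.97e-07), at D4 (log2 fold change 1.99 with SE 0.26 and adjusted p = 1.76e-05) and at D6 (log2 fold change 1.57 with SE 0.29 and adjusted p = 0.000293). It also passed at D0 (log2 fold change 1.21 with SE 0.46 and adjusted p = 0.0437), where the call was lost in 13 of the 20 fits that left out 1 library, with an adjusted p of 0.327 without WT D0 replicate 2. At D8 it did not pass (log2 fold change 0.50 with SE 0.25 and adjusted p = 0.0872).

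**Figure D3:**
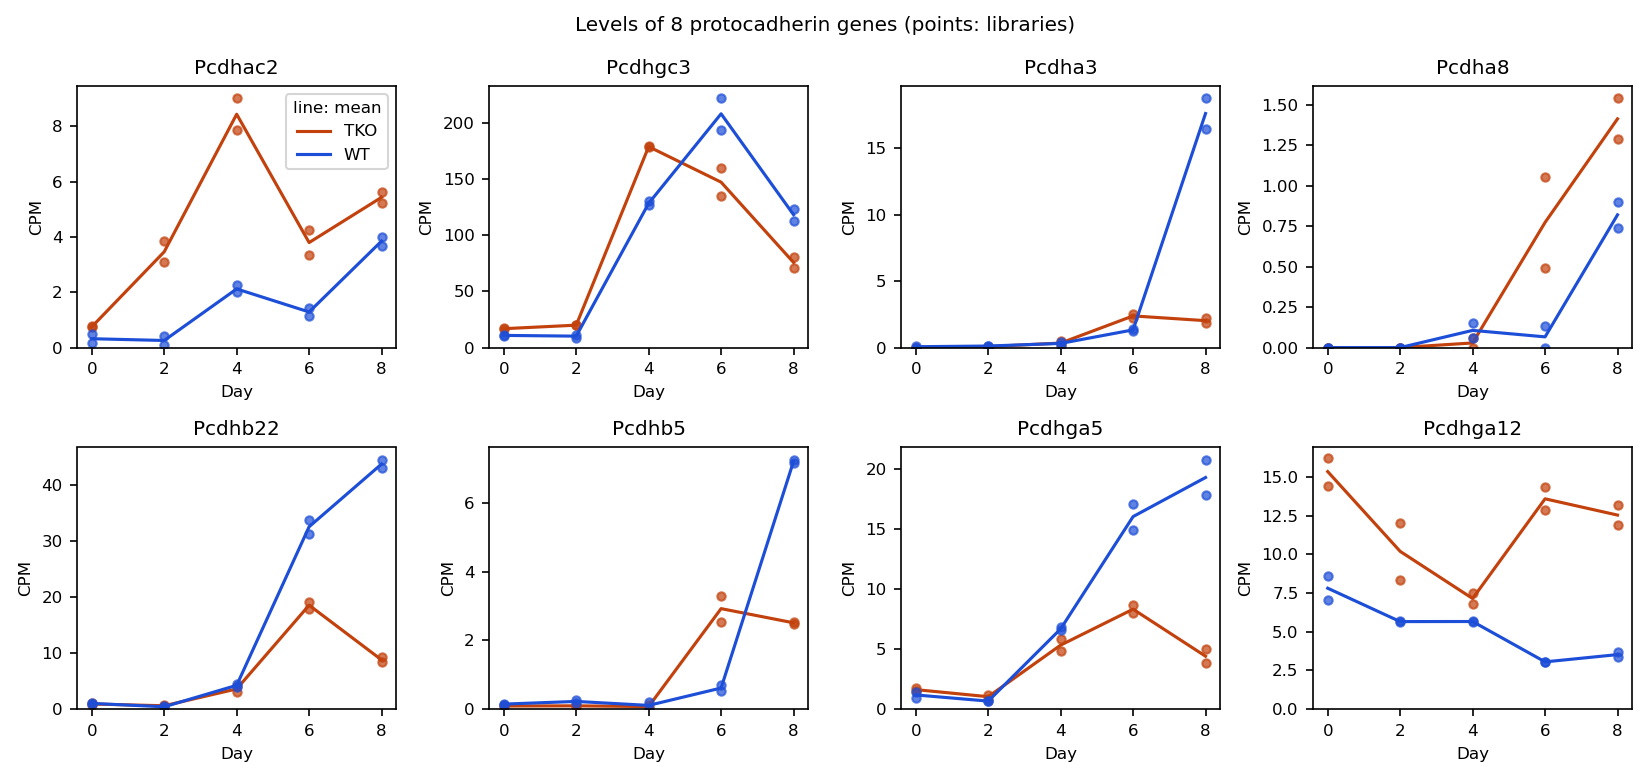
CPM of 8 named genes (panels) by day, with points for libraries and lines for group means, TKO in orange and WT in blue. Pcdhac2 and Pcdhga12 lie higher in TKO at all 5 days, and Pcdha3, Pcdhb22, Pcdhb5 and Pcdhga5 lie lower in TKO at D8. Pcdhgc3, Pcdha3, Pcdhb5 and Pcdhga5 are among the genes that change sides during the course.

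Pcdhac1, its neighbour, stayed near the limit of detection. It had at most 0.456 CPM in a TKO library and 1.41 CPM in a WT library. At D8 it was lower in TKO (log2 fold change -1.38 with SE 0.52 and adjusted p = 0.0278), a call that was lost without WT D8 replicate 2, TKO D8 replicate 1 or TKO D8 replicate 2 (adjusted p up to 0.237) and with DESeq2 (0.115).

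Pcdhgc3, the C-type gamma gene that mouse cortical neurons need for normal dendrite branching, was the most abundant member per transcript length from D4 on in both genotypes. It averaged 61.8 ± 0.955, 56.3 ± 6.90 and 26.7 ± 2.77 TPM in TKO and 42.6 ± 1.23, 79.3 ± 9.25 and 53.1 ± 3.39 TPM in WT at D4, D6 and D8. The next member at D8 was Pcdhgc4 with 9.56 ± 1.21 TPM in TKO and Pcdhb22 with 20.4 ± 0.257 TPM in WT. The libraries of Pcdhgc3 separated the genotypes at every day, with TKO first above and later below WT.

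In CPM, Pcdhgc3 had 20.2 and 19.7 CPM in TKO libraries of D2, against 8.95 and 11.4 CPM in WT libraries, with TKO above (log2 fold change 0.96 with SE 0.12 and adjusted p = 7.09e-06). It had 179 and 178 CPM in TKO libraries of D4, against 126 and 130.2 CPM in WT libraries, still with TKO above (log2 fold change 0.48 with SE 0.09 and adjusted p = 0.000713). At D6 it had 159.6 and 135 CPM in TKO libraries of D6, against 222 and 194 CPM in WT libraries, now with TKO below (log2 fold change -0.50 with SE 0.09 and adjusted p = 0.000272). At D8 it had 70.8 and 80.7 CPM in TKO libraries of D8, against 113 and 124 CPM in WT libraries, again with TKO below (log2 fold change -0.64 with SE 0.09 and adjusted p = 8.01e-06). Pcdhgc3 was the single member called lower at D8 than at D6 in WT (log2 fold change -0.82 with SE 0.09 and adjusted p = 6.79e-07), and it was lower at D8 in TKO as well (log2 fold change -0.96 with SE 0.09 and adjusted p = 2.12e-07).

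Pcdhgc4, which supports the survival of interneurons in mice, was the most abundant member per length in stem cells and at D2. It averaged 10.1 ± 2.81 TPM at D0 and 27.2 ± 1.94 TPM at D2 in TKO, and 8.10 ± 0.826 and 16.3 ± 0.0332 TPM in WT. Most of its counts on these days were assigned to a transcript of 2272 bases, of whose 31-base words 93.26% occur in other genes, against 41.87% for the transcript of 5024 bases. At D2 the shorter transcript held 1365 and 996 estimated counts in TKO libraries and 685 and 921 in WT libraries, and the longer one 13.52 and 22.9 in TKO libraries and 0 and 19.8 in WT libraries. Pcdhgc4 did not pass between the genotypes at any day, with adjusted p of 0.0581 to 0.752.

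Pcdhgc5, the last gene of the gamma cluster, had 5.42 and 6.21 CPM in TKO libraries of D6, against 4.06 and 3.01 CPM in WT libraries (log2 fold change 0.71 with SE 0.22 and adjusted p = 0.0134). At D8 it had 8.18 and 7.26 CPM in TKO libraries of D8, against 4.90 and 6.18 CPM in WT libraries (log2 fold change 0.48 with SE 0.20 and adjusted p = 0.046), with TKO above WT in both cases. Its call at D8 was lost with relative log expression scaling, with DESeq2, with length-scaled or protein-coding counts and in 12 of the 20 fits without 1 library (adjusted p up to 0.270, without WT D8 replicate 1). Its call at D6 was lost without WT D6 replicate 2 or TKO D6 replicate 2 (up to 0.138) and with length-scaled or protein-coding counts.

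At D4 few members were called. The test called 4 members higher and 2 lower in TKO, of 15.1% and 13.2% of all genes tested, and none of 21 beta genes and none of 12 alternate alpha genes was called by the edgeR test. The 4 higher members were Pcdhac2, Pcdhgc3, Pcdhga6 and Pcdhgb2, and the 2 lower ones Pcdhga4 and Pcdhga11. Pcdhga6 had 3.75 and 3.54 CPM in TKO libraries of D4, against 1.60 and 1.56 CPM in WT libraries, with TKO above (log2 fold change 1.20 with SE 0.22 and adjusted p = 0.000542). Pcdhga4 had 3.32 and 3.70 CPM in TKO libraries of D4, against 6.57 and 6.38 CPM in WT libraries, with TKO below (log2 fold change -0.89 with SE 0.15 and adjusted p = 0.000246). Pcdhga11, which was higher in TKO at D0 and D2, was lower at D4 (log2 fold change -0.61). The call of Pcdhgb2 was lost in 8 of the 20 fits without 1 library (adjusted p up to 0.221, without TKO D4 replicate 2), and the number of lower members was 4 to 6 without WT D0 replicate 1, WT D0 replicate 2, WT D4 replicate 2 or TKO D4 replicate 2.

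Of the 5 days, D6 had the most members called higher in TKO. The test called 27 of 57 members higher (47.4%) and 6 lower (10.5%), against 20.9% and 20.3% of all genes tested. The median log2 fold change of the members was 0.51, and that of all genes tested was 0.00. Higher were 14 of 21 beta genes, 6 of 14 alpha genes and 7 of 22 gamma genes, and lower were 5 gamma genes and Pcdhb22. The count of 27 was 13 without TKO D6 replicate 2, the TKO library with the higher beta sum (97.1 and 126 CPM in TKO and 96.9 and 84.8 CPM in WT), and the count of 6 was 3 without it or without WT D6 replicate 1.

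Among the beta genes, Pcdhb5 had 2.55 and 3.30 CPM in TKO libraries of D6, against 0.697 and 0.530 CPM in WT libraries. Both TKO libraries lay several times above the WT pair (log2 fold change 2.24 with SE 0.37 and adjusted p = 0.000115). Pcdhb4 had 1.42 and 2.07 CPM in TKO libraries of D6, against 0.606 and 0.430 CPM in WT libraries, also without overlap (log2 fold change 1.73 with SE 0.39 and adjusted p = 0.00195). Pcdhb6 and Pcdhb10 were higher in TKO by 1.67 and 1.34 on the log2 scale, and Pcdhb9, at under 0.6 CPM in every D6 library, by 2.57. Pcdhb22, the last beta gene, went the other way with 17.9 and 19.2 CPM in TKO libraries of D6, against 33.8 and 31.3 CPM in WT libraries (log2 fold change -0.81 with SE 0.11 and adjusted p = 1.8e-05). Pcdhb21 beside it had 3.85 and 5.76 CPM in TKO libraries of D6, against 5.49 and 4.07 CPM in WT libraries, and its pairs overlapped (log2 fold change 0.00, adjusted p = 1).

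In the alpha cluster Pcdha1, the first gene, had 0.551 and 0.562 CPM in TKO libraries and no count in either WT library of D6, at least 11.7-fold higher against the floor of 3 counts over the group (adjusted p = 0.000715). Pcdha8 had 0.493 and 1.05 CPM in TKO libraries of D6, against 0 and 0.132 CPM in WT libraries, with the TKO pair above (log2 fold change 3.50 with SE 0.83 and adjusted p = 0.00405). Pcdha6 and Pcdha9 were higher by 2.18 and 1.21 on the log2 scale. Pcdha3 had 2.52 and 2.25 CPM in TKO libraries of D6, against 1.24 and 1.42 CPM in WT libraries (log2 fold change 0.84 with SE 0.32 and adjusted p = 0.0456), a call lost in 12 of the 20 fits without 1 library (adjusted p up to 0.186, without WT D6 replicate 1). The whole alternate alpha group summed to 15.9 and 19.4 CPM in TKO libraries, against 13.7 and 11.2 CPM in WT libraries at D6.

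The gamma cluster split at D6. Higher in TKO were Pcdhgb2, Pcdhgb4, Pcdhga8, Pcdhgb5, Pcdhgb8, Pcdhga12 and Pcdhgc5, that is 4 of 7 gamma B genes, 2 of 12 gamma A genes and 1 C-type gene. Pcdhga12 had 14.3 and 12.8 CPM in TKO libraries of D6, against 3.06 and 3.05 CPM in WT libraries, a gap several times the spread within the pairs (log2 fold change 2.15 with SE 0.16 and adjusted p = 1.09e-08). Pcdhgb5 had 12.4 and 15.7 CPM in TKO libraries of D6, against 3.73 and 3.84 CPM in WT libraries, with no overlap (log2 fold change 1.89 with SE 0.31 and adjusted p = 9.65e-05). Pcdhgb2 had 18.1 and 19.8 CPM in TKO libraries of D6, against 7.94 and 7.05 CPM in WT libraries, likewise (log2 fold change 1.33 with SE 0.14 and adjusted p = 9.3e-07). The call of Pcdhga8 (log2 fold change 1.13, adjusted p = 0.0349) was lost without either WT D6 or either TKO D6 library (adjusted p up to 0.206, without WT D6 replicate 1).

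Lower in TKO at D6 were Pcdhga5, Pcdhga7, Pcdhgb6, Pcdhga10 and Pcdhgc3. Pcdhga5 had 8.00 and 8.64 CPM in TKO libraries of D6, against 14.9 and 17.1 CPM in WT libraries, with the TKO pair below (log2 fold change -0.95 with SE 0.16 and adjusted p = 0.000132). The calls of Pcdhga7, Pcdhgb6 and Pcdhga10, with log2 fold changes of -0.58 to -0.36, were each lost without WT D6 replicate 1 and without TKO D6 replicate 2 (adjusted p up to 0.233, for Pcdhgb6 without WT D6 replicate 1).

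Markers of several cell types were higher in TKO at D6. The 12 neuron markers summed to 1414 to 1813 CPM in TKO libraries and 912 to 1012 CPM in WT libraries, and 10 of 12 were higher in TKO with none lower. Progenitor markers, 8 genes, summed to 2314 to 2461 CPM in TKO and 3115 to 3266 CPM in WT, with 5 lower and 1 higher. Of the 6 pluripotent cell markers 5 were higher in TKO at D6, while their sum was 253 to 294 CPM in TKO and 247 to 257 CPM in WT. Of 8 endoderm markers 7 were higher and none lower in the edgeR test, at 49.3 to 65.2 CPM in TKO and 11.7 to 15.8 CPM in WT. Of 7 trophoblast markers 6 were higher, at 26.1 to 29.2 CPM in TKO and 10.5 to 10.5 CPM in WT, and of 6 surface ectoderm markers 5, at 250.3 to 267 CPM in TKO and 99.1 to 106 CPM in WT. Higher and lower were 2 and 1 of 6 glia markers, 2 and 2 of 6 mesenchyme markers tested and 1 and 0 of 4 mesoderm markers tested. Of the neuron, progenitor, pluripotent, endoderm and trophoblast markers none was at 0 in both libraries of a D6 group, and 1 surface ectoderm marker was at 0 in both WT libraries. Their part in the D6 values was not tested.

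At D8 all beta genes tested and part of the alpha and gamma genes were lower in TKO, while the change of the genotype difference between D6 and D8 was not tested. The test called 39 of 57 members lower in TKO (68.4%) and 7 higher (12.3%), against 31.8% and 35.7% of all genes tested, and the median log2 fold change was -1.38 for the members and 0.04 for all genes. Besides the 21 beta genes, 8 of 14 alpha genes and 10 of 22 gamma genes were lower, and the 7 higher members were gamma genes. The counts were 36 to 40 and 5 to 8 when 1 library was left out.

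**Figure D4:**
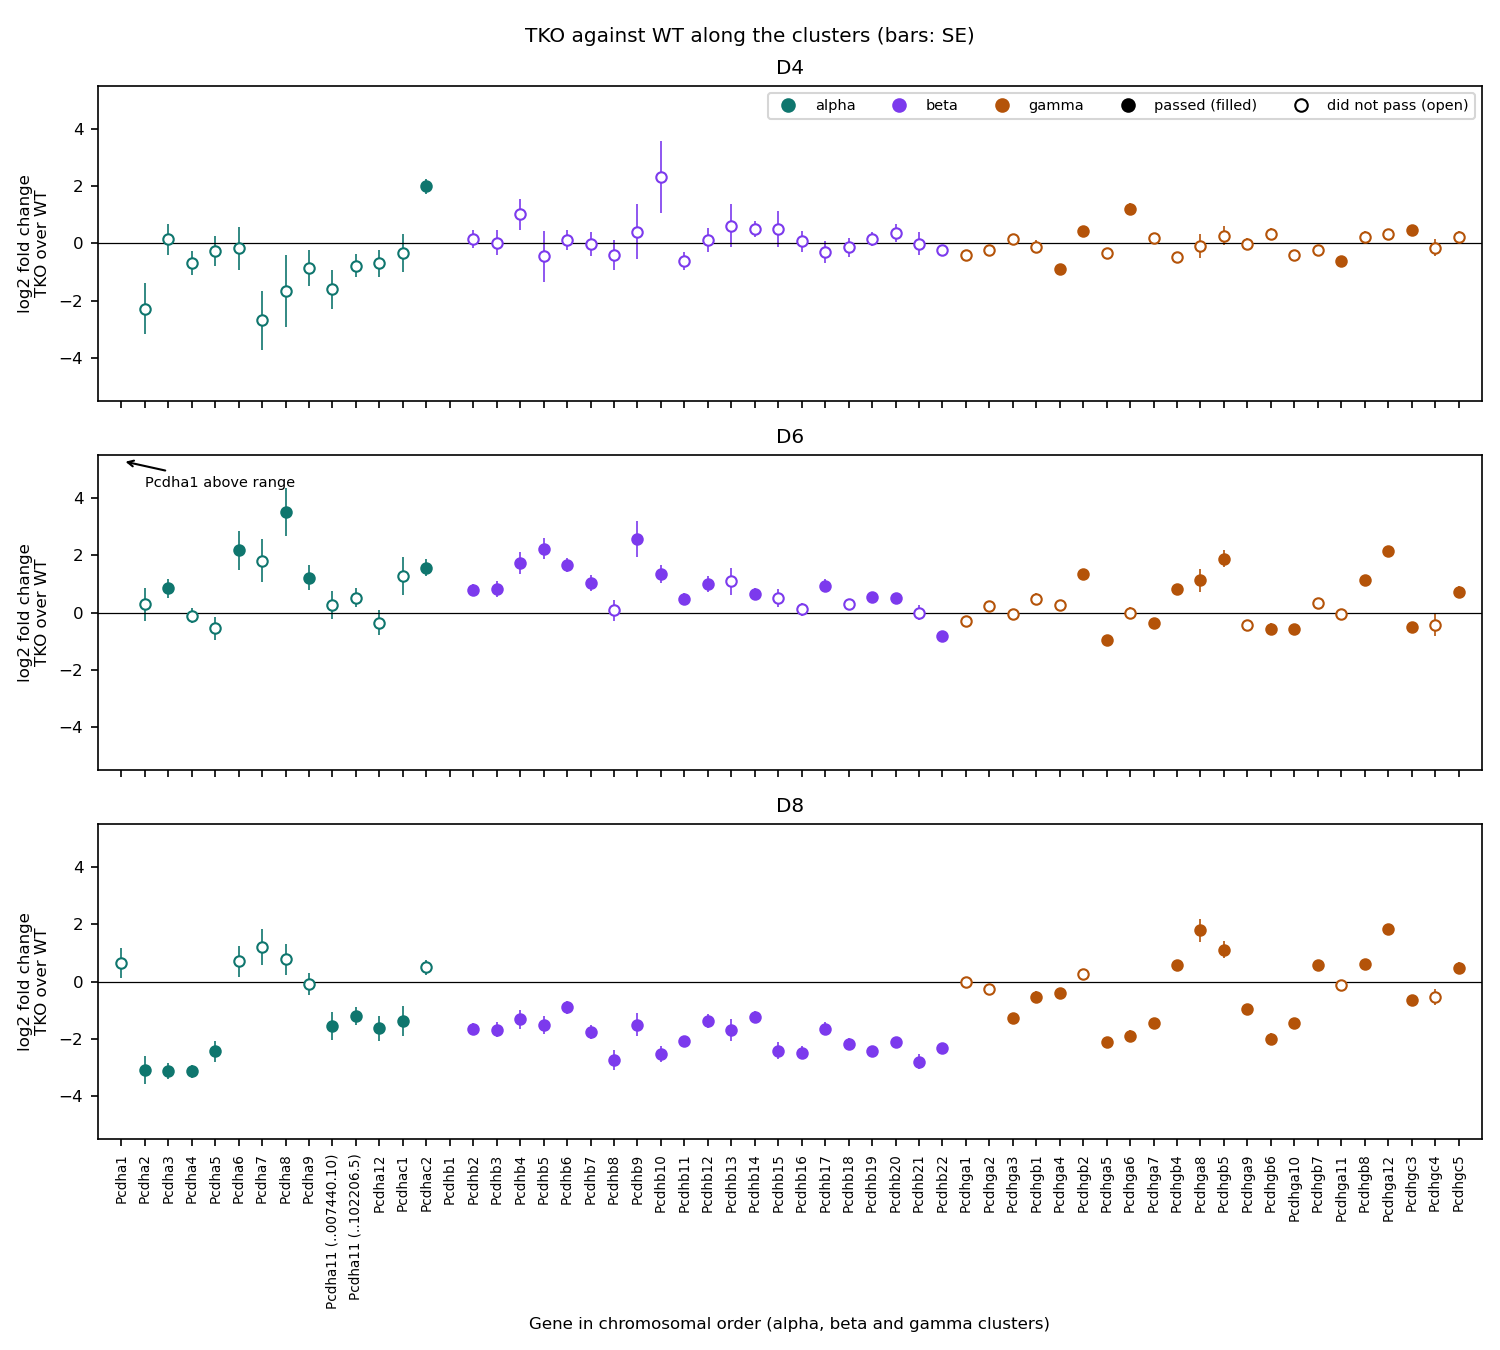
Log2 fold change of TKO over WT (vertical axis, bars are SE) for the 57 genes tested, in chromosomal order (horizontal axis, coloured by cluster), at D4, D6 and D8 (panels), with filled points for genes that passed at an adjusted p under 0.05. All beta points lie below 0 at D8 and most lie above 0 at D6, while gamma genes lie on both sides of 0 at both days. Pcdha1 lies above the range at D6 and has no count at D4, and Pcdhb1 was not tested.

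The beta genes at D8 had log2 fold changes of -2.80 (Pcdhb21) to -0.90 (Pcdhb6), with every TKO library below every WT library for each of the 21. Their sum was 84.7 and 86.0 CPM in TKO libraries, against 343 and 337 CPM in WT libraries, 3.98-fold lower in TKO. Pcdhb22 had 8.36 and 9.22 CPM in TKO libraries of D8, against 44.5 and 43.0 CPM in WT libraries (log2 fold change -2.31 with SE 0.12 and adjusted p = 1.63e-11). Pcdhb21 had 2.34 and 2.14 CPM in TKO libraries of D8, against 15.4 and 15.8 CPM in WT libraries (log2 fold change -2.80 with SE 0.26 and adjusted p = 3.43e-08), and Pcdhb8 had 0.769 and 0.796 CPM in TKO libraries of D8, against 5.44 and 5.07 CPM in WT libraries (log2 fold change -2.74 with SE 0.36 and adjusted p = 2.24e-06). The gaps between the genotypes in these 3 genes were many times the difference within a pair. Pcdhb14 had 3.29 and 2.85 CPM in TKO libraries of D8, against 7.09 and 7.19 CPM in WT libraries (log2 fold change -1.22 with SE 0.20 and adjusted p = 3.18e-05). Pcdhb5 and Pcdhb4, which were higher in TKO at D6, were lower at D8, with log2 fold changes of -1.52 and -1.32.

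The alternate alpha genes at D8 parted by position. Pcdha2, Pcdha3, Pcdha4 and Pcdha5 summed to 6.22 and 5.97 CPM in TKO libraries, against 51.7 and 47.6 CPM in WT libraries. The 4 genes that follow, Pcdha6 to Pcdha9, summed to 7.24 and 7.41 CPM in TKO libraries, against 5.52 and 5.43 CPM in WT libraries. These stretches were chosen after the values were seen and have no test of their own. Pcdha3 had 1.82 and 2.24 CPM in TKO libraries of D8, against 18.8 and 16.5 CPM in WT libraries (log2 fold change -3.11 with SE 0.29 and adjusted p = 4.72e-08), and Pcdha4 had 2.13 and 1.59 CPM in TKO libraries of D8, against 17.3 and 15.3 CPM in WT libraries (log2 fold change -3.13 with SE 0.23 and adjusted p = 5.96e-09). In both genes the TKO pair lay far below the WT pair. Pcdha2 and Pcdha5 were lower with log2 fold changes of -3.09 and -2.43. Of the 31-base words of Pcdha4, 90.7% occur in other genes, the highest share among the 58, with 57.3% in other alpha members and 41.1% in genes that are not members.

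None of Pcdha1 and Pcdha6 to Pcdha9 passed at D8, with log2 fold changes of -0.07 to 1.22 and adjusted p of 0.101 to 0.886. Pcdha8 had 1.54 and 1.29 CPM in TKO libraries of D8, against 0.740 and 0.899 CPM in WT libraries, with TKO above. Pcdha9 had 2.87 and 3.25 CPM in TKO libraries of D8, against 3.44 and 2.97 CPM in WT libraries, and its pairs overlapped. Farther along, both Pcdha11 genes and Pcdha12 were lower in TKO, with log2 fold changes of -1.63 to -1.21. Pcdha12 had 1.01 and 1.501 CPM in TKO libraries of D8, against 3.27 and 4.56 CPM in WT libraries (log2 fold change -1.63 with SE 0.44 and adjusted p = 0.00321).

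Within the gamma cluster lower and higher genes are given in chromosomal order, a view chosen after the values were seen and with no test of position. Pcdhga1 and Pcdhga2 were not called, Pcdhga3, Pcdhgb1 and Pcdhga4 were lower, and Pcdhgb2 was not called. After these, Pcdhga5, Pcdhga6 and Pcdhga7 were lower, Pcdhgb4, Pcdhga8 and Pcdhgb5 higher, Pcdhga9, Pcdhgb6 and Pcdhga10 lower, and Pcdhgb7, Pcdhgb8 and Pcdhga12 higher, with Pcdhga11 among the last not called. Gamma A genes were lower in 7 and higher in 2 of 12 cases, and gamma B genes lower in 2 and higher in 4 of 7. Gamma A summed to 115 and 121 CPM in TKO libraries, against 199 and 198 CPM in WT libraries. Gamma B summed to 54.0 and 54.2 CPM in TKO libraries, against 53.8 and 52.5 CPM in WT libraries, with the TKO pair just above. In TPM the order was the reverse, with 18.9 and 19.2 TPM in TKO libraries, against 24.2 and 23.8 TPM in WT libraries.

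Among the lower gamma genes, Pcdhga5 had 3.81 and 4.99 CPM in TKO libraries of D8, against 17.8 and 20.8 CPM in WT libraries (log2 fold change -2.12 with SE 0.17 and adjusted p = 4.03e-09). Pcdhgb6 had 3.57 and 4.66 CPM in TKO libraries of D8, against 15.9 and 16.8 CPM in WT libraries (log2 fold change -1.99 with SE 0.20 and adjusted p = 7.08e-08). Pcdhga3 and Pcdhga7, the most abundant alternate gamma genes per length in WT at D8, had 5.89 ± 0.959 and 5.52 ± 0.625 TPM in TKO and 18.2 ± 0.0797 and 18.4 ± 1.11 TPM in WT at D8 (log2 fold changes in counts -1.28 and -1.44). In all 4 genes both TKO libraries lay below both WT libraries. The calls of Pcdhgb1 (-0.54) and Pcdhga4 (-0.39) were lost in 2 and 3 of the 20 fits without 1 library, with adjusted p up to 0.286 without WT D8 replicate 1 and 0.182 without TKO D8 replicate 2, and both with length-scaled counts.

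Among the higher gamma genes, Pcdhga12 had 11.9 and 13.2 CPM in TKO libraries of D8, against 3.36 and 3.69 CPM in WT libraries (log2 fold change 1.83 with SE 0.16 and adjusted p = 1.11e-08). Pcdhga8 had 9.97 and 10.3 CPM in TKO libraries of D8, against 3.87 and 1.98 CPM in WT libraries (log2 fold change 1.79 with SE 0.39 and adjusted p = 0.000618). Pcdhgb5 had 9.02 and 9.22 CPM in TKO libraries of D8, against 3.87 and 4.53 CPM in WT libraries (log2 fold change 1.12 with SE 0.31 and adjusted p = 0.00369). In all 3 genes both TKO libraries lay above both WT libraries. The 2 WT D0 libraries of Pcdhga8 lay far apart, at 1.79 and 6.01 CPM, as did those of Pcdhgb5, at 3.03 and 8.15 CPM. The call of Pcdhgb8 at D8 (log2 fold change 0.61, adjusted p = 0.00995) was lost without WT D8 replicate 2 (adjusted p = 0.0807).

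Over the last step, D8 against D6, few members were higher in TKO and most were in WT. In TKO the test called 2 members higher and 12 lower at D8, of 25.5% and 24.5% of all genes tested. In WT it called 45 higher and 1 lower, of 26.6% and 30.3%. The 45 included all 21 beta genes tested, 12 of 14 alpha genes and 12 of 22 gamma genes. The beta sum was 85.3 ± 0.872 CPM at D8 and 112 ± 20.8 CPM at D6 in TKO, and 340.0 ± 4.34 CPM at D8 and 90.8 ± 8.50 CPM at D6 in WT (n = 2 each). The difference between these 2 steps was not tested as such. For the change from D0 to D8 it was. The interaction passed for 4 members with a larger gain and 18 with a smaller gain in TKO, 22 in all. The shares of all genes tested were 29.3%, 22.9% and 52.2%. Among the 22 were 8 beta genes, 14 gamma genes and no alpha gene. Pcdhga12, counted with a larger gain, had lower CPM at D8 than at D0 in both genotypes, with a smaller fall in TKO.

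In TKO, Pcdhb21 had 2.34 and 2.14 CPM at D8 and 3.85 and 5.76 CPM at D6 (log2 fold change -1.09 with SE 0.27 and adjusted p = 0.00265), a call lost without TKO D6 replicate 2 (adjusted p = 0.0536). Pcdhb22 had 8.36 and 9.22 CPM at D8 and 17.9 and 19.2 CPM at D6, a fall that held in the TKO pairs (log2 fold change -1.08 with SE 0.12 and adjusted p = 1.26e-06). The 2 TKO members that rose in this step were Pcdhgc4 (log2 fold change 1.86) and Pcdhgb7 (0.38), and the count of 2 was 1 without TKO D6 replicate 1, TKO D8 replicate 1 or TKO D8 replicate 2 and 5 without WT D0 replicate 1 or WT D0 replicate 2. The counts of Pcdhgc4 that differ between these days lie in its transcript of 2272 bases, most of whose words are shared, with 278 and 349 estimated counts at D8 and 0 and 5.90 at D6 in TKO libraries. Its transcript of 5024 bases had 89.7 and 167 at D8 and 111 and 109 at D6, and these pairs overlapped. The call of Pcdhgb7 was lost without any of the TKO D6 and D8 libraries (adjusted p up to 0.128, without TKO D6 replicate 2).

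In WT, Pcdha3 had 18.8 and 16.5 CPM at D8 and 1.24 and 1.42 CPM at D6 (log2 fold change 3.72 with SE 0.30 and adjusted p = 2.18e-08). Pcdhb5 and Pcdha4 rose by 3.54 and 3.50 on the log2 scale in this step. Each of these genes was higher in both WT D8 libraries than in both WT D6 libraries. In TKO the same step gave -0.23, -0.21 and 0.48, none of which passed.

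Neural markers at D8 were lower in TKO. The 12 neuron markers summed to 1117 to 1131 CPM in TKO libraries and 4696 to 4789.7 CPM in WT libraries, and all 12 were lower in TKO with a median log2 fold change of -1.92, beside -1.38 for the protocadherins. All 8 progenitor markers were lower too, at 1116 to 1119 CPM in TKO and 2873 to 2956 CPM in WT. Of the 6 pluripotent cell markers 5 were higher in TKO, at 901 to 962 CPM in TKO and 212 to 230.2 CPM in WT. Dcx, a microtubule protein of young neurons, averaged 125 ± 0.139 CPM in TKO and 719 ± 8.02 CPM in WT (SD, n = 2; log2 fold change -2.52 with SE 0.13 and adjusted p = 1.29e-11). None of these markers was at 0 in both libraries of a D8 group, and the labelled course towards neural cells was visible in both genotypes, with 11 of 12 neuron markers in TKO and 12 of 12 in WT higher at D8 than at D0.

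**Figure D5:**
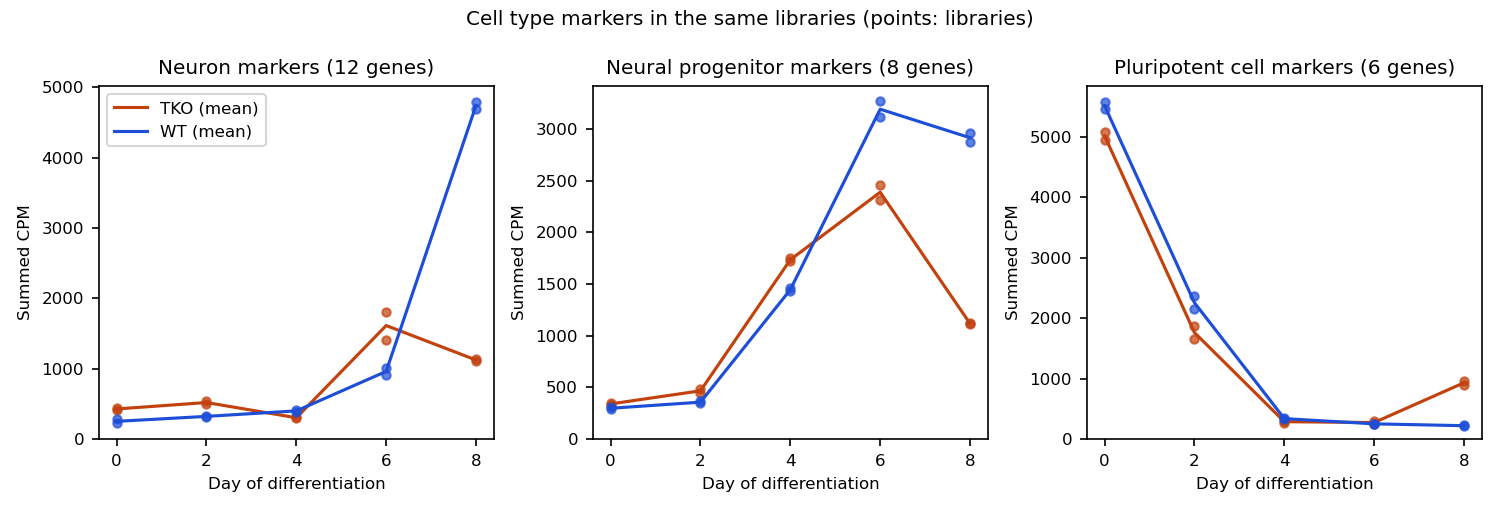
Summed CPM of 12 neuron, 8 neural progenitor and 6 pluripotent cell markers (panels) by day in the same libraries, with points for libraries and lines for group means, TKO in orange and WT in blue. The neuron sum is higher in TKO at D6 and lower at D8. The pluripotent sum of the TKO libraries at D8 is 901 and 962 CPM, above 212 and 230 CPM in WT.

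Other marker lists at D8 were called in part, where 35.7% of all genes tested were higher in TKO and 31.8% lower. Higher and lower in TKO were 3 and 2 of 8 endoderm markers, 5 and 0 of 7 trophoblast markers, 4 and 0 of 6 surface ectoderm markers, 2 and 0 of 4 mesoderm markers tested, 2 and 0 of 6 glia markers, and 0 and 3 of 6 mesenchyme markers tested. Their summed levels were low beside the neuron markers, for example 51.5 to 84.7 CPM in TKO and 49.4 to 79.3 CPM in WT for endoderm. The part of any of these cell types in the protocadherin values at D8 was not tested.

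Regulators of the protocadherin promoters were read in the same libraries. Of 20 such genes 0 were higher and 8 lower in TKO at D0, 1 and 13 at D2, 3 and 5 at D4, 3 and 6 at D6, and 13 and 6 at D8. Among all genes tested 19.4% were higher and 19.9% lower at D0, 18.4% and 16.9% at D2, 15.1% and 13.2% at D4, 20.9% and 20.3% at D6, and 35.7% and 31.8% at D8. Their part in the protocadherin values was not tested. Dnmt1, the maintenance DNA methyltransferase, averaged 78.7 ± 5.46 CPM in TKO and 441 ± 57.7 CPM in WT at D0 (log2 fold change -2.49 with SE 0.09 and adjusted p = 1.74e-12). Dnmt3a and Dnmt3b, the de novo methyltransferases, were lower in TKO, with log2 fold changes of -2.09 and -1.61 at D0 and of -3.24 and -3.64 at D2. Dnmt3b, which in the mouse places methylation on protocadherin promoters, was higher in TKO at D8 (log2 fold change 0.92 with SE 0.12 and adjusted p = 3.07e-06). These are RNA levels, which give neither enzyme activity nor DNA methylation.

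The architectural factors differed less. Ctcf, which binds the alternate promoters and their enhancers, averaged 226 ± 1.03 CPM in TKO and 188 ± 3.37 CPM in WT at D8 (log2 fold change 0.26 with SE 0.06 and adjusted p = 0.000919). The cohesin subunits Rad21, Smc1a and Smc3 were higher by 0.15, 0.19 and 0.48 on the log2 scale at D8, and the cohesin release factor Wapl by 0.40. Smchd1, a chromosomal protein whose loss changes protocadherin expression in mice, was higher by 0.25, and Setdb1, a histone methyltransferase, by 0.15. Larger were the changes of Rest, a repressor of neuronal genes (0.99), and of the methylcytosine dioxygenases Tet1 (1.73) and Tet3 (-1.33), where Rest and Tet1 were higher in TKO and Tet3 lower.

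The processing and signalling partners of the proteins were called in both directions, with 4 higher and 3 lower of 20 in TKO at D0, 5 and 2 at D2, 6 and 3 at D4, 4 and 7 at D6, and 4 and 12 at D8. At D0 both counts were near the all-gene shares of 19.4% and 19.9%, and at D8 these shares were 35.7% and 31.8%. Adam10, the protease that sheds protocadherin ectodomains, had log2 fold changes of 0.74 at D0, 0.75 at D2 and 0.48 at D4 and of -0.71 at D8, all of which passed. Its levels at D8 were 94.5 ± 0.218 CPM in TKO and 155 ± 5.62 CPM in WT. Marcks, a membrane protein of growing dendrites that acts in gamma protocadherin signalling in mice, was lower at D8 (log2 fold change -1.32), as were the WAVE complex subunits Cyfip2 and Abi2 (-1.09 and -0.45). Ptk2b, a kinase that alpha and gamma protocadherins bind and inhibit, was higher by 2.02 at D6 and 2.65 at D8 on the log2 scale, and its relative Ptk2 did not pass at D8 (-0.10).

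Genes around the clusters were called in both directions. Of 16 neighbours 4 were higher and 4 lower in TKO at D0, 1 and 5 at D2, 1 and 3 at D4, 5 and 3 at D6, and 7 and 4 at D8, beside all-gene shares of 19.4% and 19.9% at D0 and of 35.7% and 31.8% at D8, near which the counts of these days lay. Taf7, a subunit of the general transcription factor TFIID that lies between the beta and gamma clusters, averaged 94.96 ± 1.74 CPM in TKO and 41.2 ± 0.644 CPM in WT at D8 (log2 fold change 1.21 with SE 0.08 and adjusted p = 6.93e-10). Diaph1, an actin regulator after the gamma cluster, averaged 136 ± 5.62 CPM in TKO and 51.3 ± 0.233 CPM in WT (log2 fold change 1.41 with SE 0.07 and adjusted p = 1.4e-11). Zmat2, before the alpha cluster, did not pass (log2 fold change -0.07 with SE 0.06 and adjusted p = 0.26). Pcdh1, a protocadherin outside the clusters, was higher in TKO at all 5 days, by 0.41 to 1.55 on the log2 scale.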

How the data were processed

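The series holds 20 stranded mRNA libraries (TruSeq Stranded mRNA, per the labels' protocols). Each deposited table gives estimated counts and TPM per transcript, made by the authors with kallisto, per the file headers and the submitters' processing notes, which also name Trim Galore 0.6.2 and GRCm38; the kallisto version and transcript set are not given in the sources used here. Of 119414 transcripts 116640 matched GENCODE M21 by identifier, and the 2774 others, with 0.969% to 1.12% of counts, were left out. The estimated counts were added up by gene, then rounded, and the 88 member transcripts gave 58 genes. All 20 libraries were fitted together in edgeR 4.0.16 (R 4.3.3; quasi-likelihood F test, TMM, filterByExpr, 1 mean per group, 10 residual degrees of freedom, common biological coefficient of variation 0.0689), with Benjamini-Hochberg adjustment over 18545 genes. TKO was compared with WT on each day, D8 was compared with D0 and D6 within each genotype, and an interaction term tested whether the D8 to D0 change depended on genotype. The code was tested on simulated data. The precision is limited by 2 libraries per group, and the floor of 3 counts reflects counting error alone.

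Named members were the 5 C-type genes, the member of highest mean TPM in each of 4 classes, and per day and class up to 2 passing members of largest change in each direction with separate groups and 0.5 CPM or more in a group; other members are named where a count is spelled out or a neighbour is described, chosen after their values were seen. Lists covered promoter regulators, processing and signalling partners, genes around the clusters, and markers of pluripotent cells, neural progenitors, neurons, glia, endoderm, trophoblast, mesenchyme, surface ectoderm and mesoderm. The members and lists were chosen with earlier results of these data known. Alternatives were a fit blocked on replicate number, relative log expression scaling, length-scaled TPM counts, protein-coding transcripts only, no filter on low counts, DESeq2 1.42.0, the compared groups only, an adjusted p under 0.01, detection at 0.1 or 1 CPM, and leaving out each library, which lets a lone library borrow the spread of the others.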

Additional observations from a re-analysis of the deposited data

Results flagged for a closer look

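The difference of D8 against D0 was itself compared between TKO and WT (edgeR interaction term, adjusted p under 0.05). It passed for 22 of 57 members, of 52.2% of all genes tested, and 18 of the 22 had a smaller gain in TKO.

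In the beta cluster the interaction passed for 8 genes, all with a smaller gain in TKO, among them Pcdhb21 (log2 -5.26), Pcdhb22 (log2 -2.16) and Pcdhb14 (log2 -1.05). At D0 Pcdhb21 had 3 and 3 counts in TKO libraries and 1 and 0 in WT libraries, so the size of its value is uncertain. The call of Pcdhb14 was lost in 6 of the 20 fits that left out 1 library (adjusted p up to 0.0870, without WT D0 replicate 2).

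Gamma genes with a smaller gain in TKO were Pcdhga5 (log2 -2.59), Pcdhgb6 (-2.33), Pcdhga10 (-1.87), Pcdhga9 (-1.55), Pcdhgc3 (-1.28), Pcdhga3 (-1.21), Pcdhga4 (-0.96), Pcdhgb1 (-0.92), Pcdhga7 (-0.88) and Pcdhga11 (-0.87). The call of Pcdhgb1 was lost in 4 of the 20 such fits (up to 0.183, without WT D0 replicate 2).

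Gamma genes with a positive interaction, counted as a larger gain in TKO, were Pcdhga8 (log2 2.46), Pcdhgb5 (1.65), Pcdhga12 (0.86) and Pcdhgb4. For Pcdhga12 the value stands for a smaller fall in TKO, as its level was lower at D8 than at D0 in both genotypes. It had 14.5 and 16.3 CPM at D0 and 11.9 and 13.2 CPM at D8 in TKO libraries. The WT libraries had 8.58 and 7.05 CPM at D0 and 3.36 and 3.69 CPM at D8. The call of Pcdhgb5 was lost without WT D0 replicate 2 (log2 0.78, adjusted p = 0.0693), and the number of members with a larger gain was then 2. No alpha gene passed in the edgeR fit, and most of these had fewer than 10 counts in a D0 library.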

How the results depend on the processing

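Counts of called members are given as higher and lower in TKO or at D8. At an adjusted p under 0.01 they became 5 and 2 at D0, 7 and 1 at D2, 0 lower for D8 against D0 in TKO and 1 higher for D8 against D6 in TKO. With the compared groups only they were 5 and 1 at D0, 0 lower at D2, 4 lower at D4, 11 higher at D8, 2 lower for D8 against D0 in TKO and 7 higher for D8 against D6 in TKO. Without the low-count filter the lower members were 9 at D0, 5 at D2, 6 at D4 and 2 for D8 against D0 in WT. The fit on protein-coding transcripts left out Pcdhgb8, which has none. Length-scaled counts gave 4 lower at D4, protein-coding transcripts 2 lower for D8 against D0 in TKO, and DESeq2 1 higher for D8 against D6 in TKO. Every other count under these settings and relative log expression scaling stayed within 1.5 times. Leaving out 1 library gave 6 to 10 and 1 to 8 at D0, 7 to 13 and 1 to 3 at D2, 3 to 4 and 2 to 6 at D4, 13 to 28 and 3 to 8 at D6, 5 to 8 and 36 to 40 at D8, 50 to 51 and 1 to 3 for D8 against D0 in WT, 50 to 51 and 0 to 2 in TKO, 38 to 45 and 1 for D8 against D6 in WT, 1 to 5 and 11 to 15 in TKO, and 2 to 5 and 15 to 18 for the interaction. The cause of these moves was not tested. No named call changed direction. Replicate numbers did not pair the libraries (1 of 45 group pairs had a correlation of deviations over 0.1, with a median of 0.0209). With the replicate number as a block, all 20 counts stayed within 1.5 times, and of the named calls those of Pcdha3 at D6, Pcdhgb2 at D4 and Pcdhgc5 at D8 were lost (adjusted p = 0.0522, 0.0502 and 0.0524). Depth limits the alpha and beta genes at D0 and D2, most of which had fewer than 10 counts in each library. The number of members detected moved with the minimum CPM. At D4 it was 25 and 27 in TKO libraries and 29 and 25 in WT libraries at 1 CPM. At 0.1 CPM it was 53 and 52 in TKO libraries and 52 and 54 in WT libraries of D4. At D8 it was 52 and 52 in TKO libraries and 52 and 53 in WT libraries at 1 CPM.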
